A study of Rattus norvegicus with 16 samples.

Results

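The comparison set the effect of brain injury in blood against its effect in the brain: for each gene, TBI minus sham in white blood cells (WBC) minus TBI minus sham in the hippocampal CA1 field, on the log2(FPKM + 0.5) scale. It used 16 of the 16 libraries of the series and the 7639 genes whose symbol stood in both tables with a mean of at least 1 FPKM (a fragment count scaled to transcript length and library size) and an accepted status in every library of each. A further 2828 symbols passed that filter in CA1 alone and 1227 in WBC alone, and they were not compared.

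The 4 groups held 4 libraries each: CA1 of sham rats, CA1 of rats with traumatic brain injury (TBI), WBC of sham rats and WBC of TBI rats. All animals were male Sprague-Dawley rats with no genetic change named in the labels. TBI rats received a fluid percussion injury, in which a pulse of fluid strikes the exposed dura, and sham rats had the surgery; both were tested for learning and sampled 1 week after surgery. RNA-seq libraries were made from poly-A selected RNA. Samples are numbered in the labels, which do not say that equal numbers in CA1 and WBC are one rat or that a library is a single animal. Samples were not paired, and a p-value here speaks for the variation among these libraries alone, which may be technical. The sources used here state no age.

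CA1 is the output field of the hippocampus, built of pyramidal neurons with astrocytes, oligodendrocytes, microglia and vessels, and it is known for its part in spatial memory and for its sensitivity to injury. White blood cells are a mixture of lymphocytes, neutrophils and monocytes, and such preparations commonly carry reticulocytes, the youngest red cells, which still hold RNA, as well as platelets. Brain injury is known to act on blood cells through stress hormones, nerve signals and factors released from the damaged tissue.

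The marker genes matched the labelled tissues. Summed over Snap25, Syt1, Slc17a7, Wfs1 and Camk2a, neuron markers lay between 4500 and 6546 FPKM in CA1 and between 6.76 and 18.2 in WBC, and Ptprc, Coro1a and Laptm5 together, which mark leukocytes, lay between 1251 and 1476 in WBC. Red cell and platelet RNA was abundant in WBC and lower after injury: 28 of 28 measured genes of the erythroid list were lower, with sums of 21040 to 31810 FPKM in sham and 8268 to 19336 in TBI, and 23 of 24 platelet genes were lower, with sums of 10518 to 14064 against 3580 to 9742. WBC TBI 1 was the lowest library for both sums and stood apart on the first principal component of WBC, at 32.9 against 3.06 to 9.64 for the other TBI libraries and -20.1 to -9.42 for sham. In CA1 the choroid plexus list summed to 138 to 1523 FPKM in sham and 289 to 2978 in TBI, overlapping. Libraries are RNA from whole tissue or a mixed cell pellet, so fewer cells of a type and less RNA per cell cannot be told apart.

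Estimated injury effects in blood and CA1 had little in common gene by gene. Of the 7639 genes, 3803 had the same sign in both tissues and 3836 opposite signs, which is 49.8% with the same sign. Across genes, which are not independent replicates, the effects had a Pearson r of 0.04. Effects were larger in blood, with an SD over genes of 0.304 on the log2 scale against 0.155 in CA1, and the difference between tissues had a median of -0.01 and an SD of 0.335. The median SE of an effect was 0.103 in each tissue, so much of the CA1 SD may be noise. Low agreement therefore does not show that the tissues shared no effects. In the plot of one effect against the other, the points spread along the blood axis, mostly downward.

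**Figure D1:**
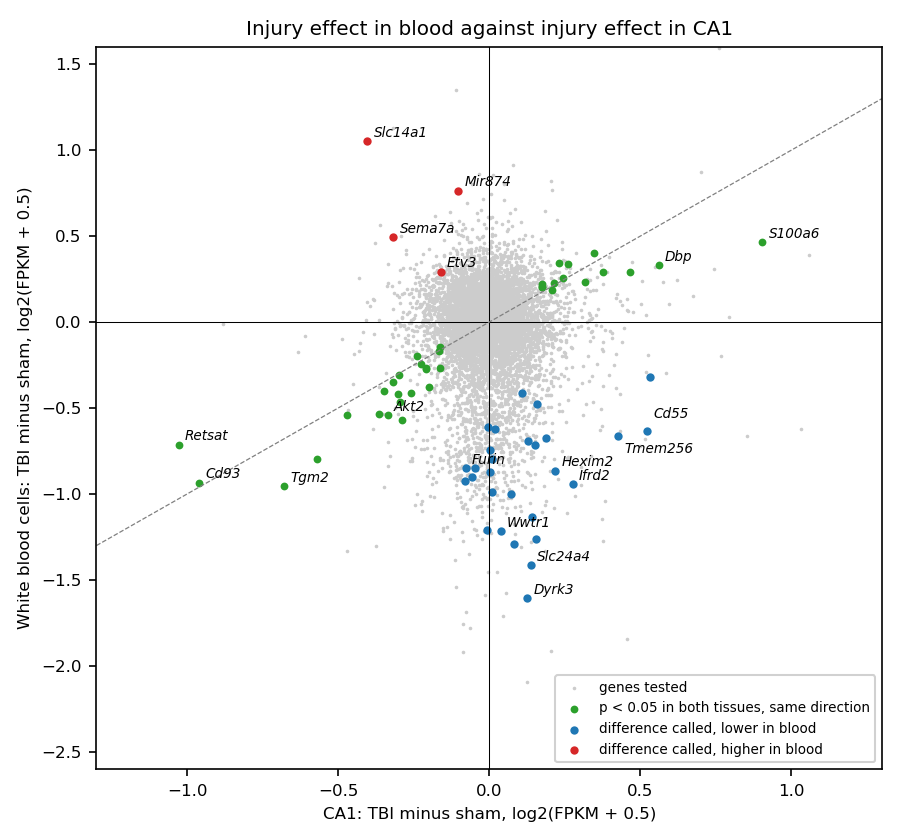
Injury effect in WBC (vertical) against injury effect in CA1 (horizontal), both as TBI minus sham on the log2(FPKM + 0.5) scale, for 7633 genes, with 6 genes outside the axes. Blue and red points are the 28 genes with a lower and 4 with a higher effect in blood relative to CA1 (adjusted p under 0.05). Green points are the 36 genes at an unadjusted p under 0.05 in both tissues with the same sign. The dashed line marks equal effects.

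The injury effect differed between blood and CA1 for 32 of 7639 genes, or 0.419%, at a Benjamini-Hochberg adjusted limma p under 0.05. For 28 genes (0.367%) the effect was lower in blood, led by Wwtr1, Furin, Ifrd2, Hexim2 and Ddx28, and for 4 genes (0.0524%) it was higher in blood: Slc14a1, Sema7a, Etv3 and the transcript named Mir874. The differences ran from -1.73 to 1.45 on the log2 scale, with adjusted p between 0.0145 and 0.0474. With quantile normalization the split was 20 higher and 23 lower in place of 4 and 28, and with median-ratio scaling it was 5 and 18. The labels do not tie sample numbers to rats. With the number as a replicate block 30 genes differed, 20 of them among the 32. With CA1 and WBC of equal number as a block 3 differed, 1 of them among the 32. At an unadjusted p under 0.05 there were 1514 genes (19.8%), 545 higher (7.13%) and 969 lower (12.7%) in blood, and quantile normalization turned that into 748 higher and 574 lower.

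Most of the 32 genes were effects in blood with little movement in CA1. The effect was larger in blood for 31 of them, and in 25 the CA1 effect was within 0.2 of 0. TBI and sham libraries did not overlap in blood for 29 of the 32, against 16.1% of all genes. In CA1 they did not overlap for 5, against 2.89% of all genes. The 32 were picked by effects in these same libraries, which favours groups that do not overlap, so neither count is separate evidence. Signs were opposite in 26 and the same in 6. The number of genes passing depended on single libraries: it was 6 without CA1 TBI 4, 7 without CA1 sham 2, CA1 TBI 3 or WBC sham 2, 9 without WBC TBI 4, 10 without CA1 sham 3 or CA1 sham 4, 12 without CA1 TBI 2 and 13 without CA1 TBI 1, but 49 without WBC sham 1, 52 without WBC sham 4, 98 without WBC TBI 1, 167 without WBC TBI 2 and 224 without WBC TBI 3. Wwtr1, Furin, Ifrd2, Hexim2, Ddx28 and Slc14a1 passed in all 16 of these fits. Each of these 6 missed the threshold in 1 or more of the other settings tried, with a highest adjusted limma p of 0.077. That highest value was the same for all 6, and the block on CA1 and WBC of equal number kept only 1 of the 32. The other 11 genes that are named by rule and passed missed the threshold without CA1 TBI 4 and without CA1 sham 2, and their highest adjusted limma p over the 16 fits was 0.121.

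Slc14a1, a urea transporter of red cells that astrocytes also make, had the largest difference with a higher effect in blood among the 32 genes that passed. In CA1 it was at 21.3, 22.9, 21.0 and 24.2 FPKM in sham libraries 1 to 4 and at 16.5, 17.5, 15.0 and 18.2 in TBI libraries. In WBC it was at 10.5, 16.6, 19.1 and 9.40 FPKM in sham and at 28.2, 27.99, 29.1 and 27.3 in TBI. Every TBI library was below every sham library in CA1 and above every sham library in blood, and the sham blood libraries varied more than the injured ones. Its effect was -0.40 in CA1 and 1.05 in WBC, a difference of 1.45 with an SE of 0.23 (95% interval 0.97 to 1.94, limma adjusted p = 0.0149). It moved against the erythroid list, all of whose measured genes were lower in WBC after TBI.

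Sema7a, a membrane-anchored semaphorin that acts in axon growth and on immune cells, also had opposite effects. Its CA1 values were 73.1, 90.7, 88.9 and 80.5 FPKM in sham and 72.3, 63.1, 71.2 and 60.3 in TBI. The WBC values were low, at 1.41, 1.39, 1.46 and 1.91 FPKM in sham and 2.59, 1.83, 2.71 and 2.38 in TBI. TBI libraries lay below all sham libraries in CA1, while in blood TBI 2 fell within the sham range. The effects of -0.32 and 0.49 differed by 0.81 with an SE of 0.16 (limma adjusted p = 0.0387).

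Etv3, a transcriptional repressor of the ETS family, changed by less. Sham CA1 libraries were at 3.34, 3.71, 3.79 and 3.38 FPKM and injured ones at 3.03, 3.36, 3.23 and 2.89. For WBC the values were 12.4, 12.8, 11.8 and 12.99 in sham and 15.3, 15.6, 14.8 and 15.9 in TBI. The blood groups did not overlap and the CA1 groups overlapped through TBI 2. A CA1 effect of -0.16 against 0.29 in blood gave a difference of 0.45 with an SE of 0.09 (limma adjusted p = 0.0424).

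The row named Mir874 reports poly-A RNA from that locus and not the mature miRNA, and the sources used here do not state the counting strand. It was at 2.43, 2.21, 1.69 and 1.85 FPKM in sham WBC and at 4.14, 3.61, 3.66 and 3.79 in injured WBC, without overlap. In CA1 it lay between 3.78 and 6.19 in sham and between 4.29 and 4.69 in TBI, within the sham range. The difference between effects was 0.87 with an SE of 0.17 (limma adjusted p = 0.0387).

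Among the 10 genes with the smallest p in the higher direction, 6 missed the threshold, with adjusted limma p between 0.0589 and 0.0712. Gabbr1, a subunit of the GABA-B receptor, had the largest difference of these at 0.69 (SE 0.15), from 423 to 465 FPKM in sham CA1 against 400 to 419 in TBI, and 17.0 to 21.1 in sham WBC against 24.2 to 37.0. Neither pair of groups overlapped, lower in CA1 and higher in blood. Git1, an ARF GTPase-activating scaffold of synapses, differed by 0.43 (SE 0.09) and Adck2, a mitochondrial protein of the ADCK family, by 0.41 (SE 0.09). Abcg1, a cholesterol exporter, differed by 0.52 (SE 0.12), Bace1, the beta-secretase, by 0.51 (SE 0.12), and Dhx30, an RNA helicase of mitochondria and stress granules, by 0.33 (SE 0.08). All 6 had a negative effect in CA1 and a positive one in blood.

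**Figure D2:**
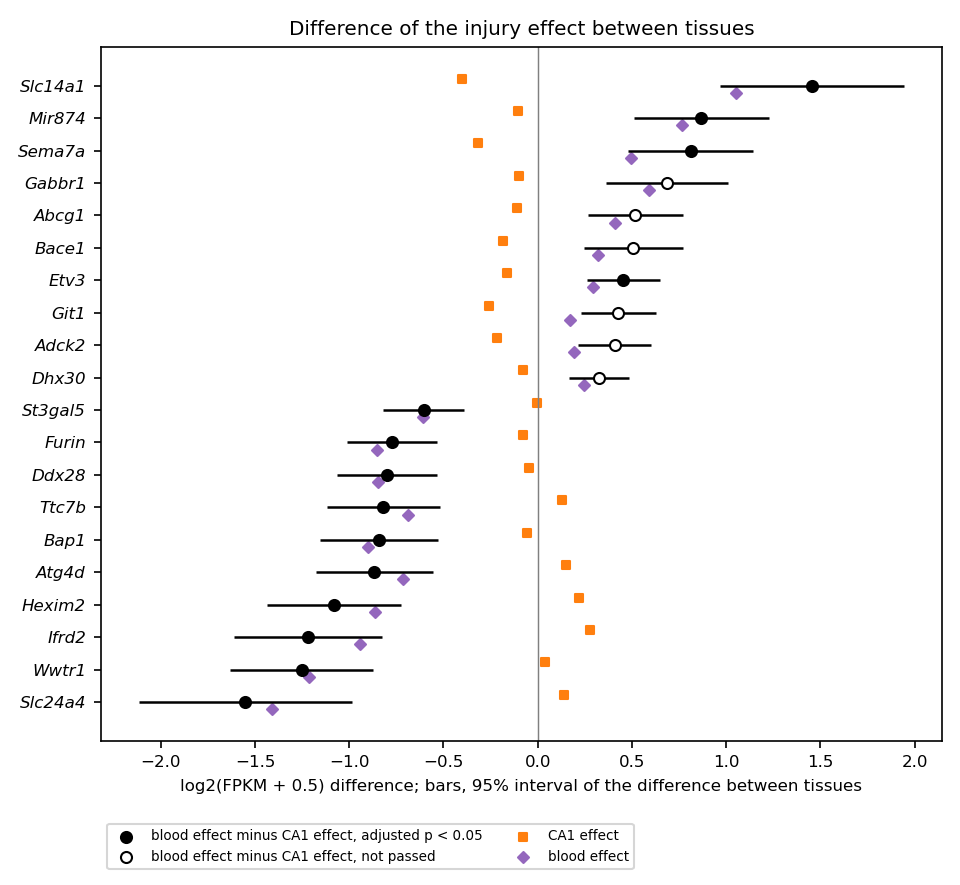
The 10 genes per direction with the smallest p for the difference between tissues, with the CA1 effect (orange squares), the blood effect (purple diamonds) and the difference with its 95% interval (circles and bars), all on the log2(FPKM + 0.5) scale. Filled circles passed an adjusted p of 0.05; the lower 10 genes had blood effects between -1.41 and -0.61 and CA1 effects between -0.08 and 0.28.

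The 28 genes with a lower injury effect in blood than in CA1 are called lower in blood below, whatever their level. Their blood effects ran from -1.61 to -0.32 and their CA1 effects from -0.08 to 0.53, the latter positive in 22. WBC groups did not overlap in 26 of the 28, where 10.3% of all genes did not overlap with TBI lower. The 28 were picked by effects in these same libraries, which favours such a separation. Red cell and platelet sums were lower in the same TBI libraries, as given above, and their part in these genes was not tested.

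Wwtr1, the Hippo pathway coactivator known as TAZ, had the smallest p. Sham WBC held 4.94, 6.24, 4.50 and 3.60 FPKM and injured WBC 1.40, 1.98, 1.80 and 1.89. CA1 stayed between 3.75 and 4.57 FPKM in all 8 libraries. All injured blood libraries were below all sham ones, and the difference between effects was -1.25 with an SE of 0.18 (limma adjusted p = 0.0145). Of 13 tested genes of the Hippo list, Wwtr1 among them, 6 had a positive and 7 a negative difference, with a median of -0.02 against -0.01 for all genes. At an unadjusted limma p under 0.05, 3 were higher in blood (Nf2, Taok2 and Lats1) and 3 lower (Wwtr1, Stk4 and Sav1). The shares of all genes at that p were 7.13% higher and 12.7% lower. Wwtr1 was the 1 gene of the list past the adjusted threshold.

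Furin, the protease that cleaves precursor proteins such as growth factors, was at 111, 122, 120 and 120 FPKM in sham WBC and at 56.9, 76.5, 68.1 and 61.6 in TBI WBC. Its CA1 values lay between 9.52 and 10.5 in sham and between 8.96 and 9.98 in TBI. Blood groups were far apart and CA1 groups overlapped, for effects of -0.85 and -0.08. The difference was -0.77 with an SE of 0.11 (limma adjusted p = 0.0145).

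Ifrd2, a ribosome-binding protein that silences translation in reticulocytes, was at 125, 119, 104 and 112 FPKM in sham WBC and at 46.0, 68.0, 59.1 and 67.3 in TBI WBC. In CA1 it was low, at 1.93 to 3.10 in sham and 2.78 to 3.53 in TBI. The blood groups were separate, the CA1 groups overlapped, and the difference between effects was -1.22 with an SE of 0.18 (limma adjusted p = 0.0145). Hexim2, an inhibitor of the elongation factor P-TEFb, was at 4.10, 4.61, 3.98 and 5.08 FPKM in sham WBC and 2.18, 2.10, 1.92 and 2.67 in TBI WBC. Its CA1 effect was 0.22 with overlapping groups, and the difference was -1.08 (SE 0.17, limma adjusted p = 0.0145). Ddx28, a mitochondrial RNA helicase of ribosome assembly, lay between 6.62 and 8.03 FPKM in sham WBC and between 3.23 and 4.56 in TBI WBC, and between 7.07 and 8.09 in all CA1 libraries. That was a difference of -0.80 with an SE of 0.12 (limma adjusted p = 0.0145).

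Slc24a4, a sodium, calcium and potassium exchanger, had the largest difference of the 10 leading genes, -1.55 with an SE of 0.27 (limma adjusted p = 0.0234). It was at 2.57, 4.20, 3.99 and 3.43 FPKM in sham WBC and at 0.558, 1.43, 1.49 and 0.7499 in injured WBC, while CA1 lay between 5.84 and 9.06 with overlapping groups. St3gal5, which makes the ganglioside GM3, was in sham WBC between 103 and 118 FPKM, in TBI WBC between 66.2 and 83.6, and between 63.6 and 69.8 across CA1, for a difference of -0.61 (SE 0.10, limma adjusted p = 0.0232). The remaining leading genes were Atg4d, a protease of autophagy, at -0.87 (SE 0.15), Bap1, a nuclear deubiquitinase, at -0.84 (SE 0.15), and Ttc7b, a scaffold of the phosphatidylinositol 4-kinase complex, at -0.82 (SE 0.14). In each of these 5 genes the blood groups were separate and the CA1 groups overlapped. St3gal5 lost its call with quantile normalization (difference -0.32, limma adjusted p = 0.154).

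Several of the other genes that passed are known from red cell precursors; they were picked out after their values were seen. Dyrk3, a kinase abundant in erythroid cells, had the largest difference of the 32 genes that passed, -1.73 (SE 0.33, limma adjusted p = 0.0387). It was at 17.8 to 28.1 FPKM in sham WBC and 4.12 to 11.5 in TBI WBC, with CA1 between 3.98 and 5.54. Bcl2l1, the survival protein Bcl-xL, differed by -1.37 (SE 0.25, limma adjusted p = 0.0322), from 195 to 306 FPKM in sham WBC and 66.0 to 130 in TBI WBC, and from 25.5 to 30.6 across CA1. For both genes every injured blood library was below every sham library. Slc7a5, a carrier of large neutral amino acids, differed by -0.85 (SE 0.16), and Ube2b, a ubiquitin-conjugating enzyme, by -0.64 (SE 0.13). Outside that group, Me1, the NADPH-making malic enzyme, differed by -1.21 (SE 0.24), Vrk2, a serine-threonine kinase, by -1.28 (SE 0.25) and Mpp2, a membrane scaffold of neurons, by -1.42 (SE 0.29). Mpp2 was one of 9 genes (0.118%) whose groups did not overlap in either tissue and lay in opposite directions, at 36.4 to 41.5 FPKM in sham CA1 and 42.1 to 47.6 in TBI CA1, against 5.07 to 7.42 and 1.14 to 3.42 in WBC.

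Promoters of the genes that passed were searched for the letters CCACCC, the CACCC box that Krüppel-like and Sp zinc-finger factors are known to read. RefSeq promoters (build GRCr8, 250 bases before to 50 after the gene start) were found for 24 of the 28 genes lower in blood, and 17 of them (70.8%) held CCACCC on either strand. So did 2 of 3 promoters of the genes higher in blood and 11 of 23 (47.8%) of the genes at an unadjusted p under 0.05 in both tissues with opposite signs, which include some of the same genes, against 9 of 31 (29%) with the same sign. The share was 34.9% of 5735 promoters of tested genes, 29.8% of all 27457 promoters and 25% of 12 promoters of the erythroid list. Of the other 3 motifs searched on both strands, CACGTG stood in 12.5% of the 24 promoters against 10.2% of tested genes. AGATAA and TTATGTAA stood in none of the 24, against 5.6% and 0.331% of tested genes. AGATAA stood in 4 of 12 promoters (33.3%) of the erythroid list and 2 of 10 (20%) of the heme synthesis list. It also stood in 1 of 3 promoters of the genes higher in blood. No motif contains another. Below are a promoter with the most matches (3), one with 1 from the heme pathway, and one with none; capitals mark CCACCC or its complement GGGTGG. They lie at chr2:143916892-143917191 on the minus strand, chr8:128712930-128713229 on the plus strand and chr8:117139362-117139661 on the plus strand. A match is a run of letters and not a binding site.
Wwtr1: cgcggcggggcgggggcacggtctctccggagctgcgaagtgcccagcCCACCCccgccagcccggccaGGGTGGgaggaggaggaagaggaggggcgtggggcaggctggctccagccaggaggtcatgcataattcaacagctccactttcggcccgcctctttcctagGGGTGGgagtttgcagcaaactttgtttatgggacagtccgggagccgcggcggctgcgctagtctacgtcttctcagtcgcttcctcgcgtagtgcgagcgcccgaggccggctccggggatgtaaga
Slc25a38: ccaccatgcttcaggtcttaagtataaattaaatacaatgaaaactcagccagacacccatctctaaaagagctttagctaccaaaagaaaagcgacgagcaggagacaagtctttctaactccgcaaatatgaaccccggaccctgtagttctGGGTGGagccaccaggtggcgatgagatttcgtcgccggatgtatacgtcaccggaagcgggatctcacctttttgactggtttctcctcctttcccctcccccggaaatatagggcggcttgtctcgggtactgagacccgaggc
Ifrd2: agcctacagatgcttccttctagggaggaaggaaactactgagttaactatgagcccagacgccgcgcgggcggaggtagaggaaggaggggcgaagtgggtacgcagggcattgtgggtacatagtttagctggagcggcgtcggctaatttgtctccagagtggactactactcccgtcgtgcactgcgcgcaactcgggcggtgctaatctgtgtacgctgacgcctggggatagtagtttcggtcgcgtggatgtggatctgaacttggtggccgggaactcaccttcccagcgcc

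In 3 genes lower in blood the CA1 effect was itself at an unadjusted limma p under 0.05, upward. Counted over all genes, 229 of 7639 (3%) reached that p in CA1 and 2256 (29.5%) in WBC. Of the 229, 65 reached it in WBC too, a share near the 29.5% of all genes. In 29 genes (0.38% of all) the signs were opposite. Of the 29, 16 (0.209%) were higher in blood and lower in CA1, 13 (0.17%) lower in blood and higher in CA1, and 6 passed the test of the difference. The fit shares one spread per gene over both tissues, and the median SD within groups was 0.111 in CA1 and 0.158 in WBC, so single-tissue p-values are too large for CA1 and too small for WBC while the SE of the difference is not affected, the groups being of equal size. No gene passed an adjusted p of 0.05 in CA1 alone in this limma fit, with 0.204 the smallest. Fitting each tissue alone gave 45 genes of opposite sign and 53 of the same sign. The opposite count was 76 without CA1 sham 1, 18 without CA1 sham 2 and 17 without CA1 sham 3. It was 19 without CA1 TBI 4 and 18 without WBC TBI 4.

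Cd55, the anchored protein that shields cells from complement, was among the genes lower in blood and higher in CA1. It was at 1.36, 1.62, 2.53 and 1.298 FPKM in sham CA1 and at 2.94, 2.43, 2.67 and 2.36 in TBI CA1. Blood values were 30.6, 31.9, 25.9 and 41.3 in sham and 21.0, 21.8, 22.4 and 17.1 in TBI. Injured blood libraries were all below sham, and in CA1 sham 3 lay among the injured libraries. Effects of 0.52 and -0.63 differed by -1.15 with an SE of 0.22 (limma adjusted p = 0.0387).

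Tmem256, a small membrane protein, was at 15.5, 11.3, 11.6 and 12.5 FPKM in sham CA1 and 18.5, 17.9, 15.7 and 16.5 in TBI CA1. Blood values were 24.7, 40.6, 38.4 and 29.2 in sham and 15.9, 21.1, 26.02 and 19.7 in TBI. The groups were separate in CA1 and overlapped in blood through TBI 3. A difference of -1.09 with an SE of 0.23 (limma adjusted p = 0.0474) was lost with median-ratio scaling (adjusted p = 0.059). Il3ra, a chain of the interleukin-3 receptor, differed by -0.66 (SE 0.14, limma adjusted p = 0.0575) and Timp2, an inhibitor of matrix metalloproteinases, by -1.07 (SE 0.24, limma adjusted p = 0.0589), neither passing. In CA1, Timp2 was at 70.6 to 95.5 FPKM in sham and 91.3 to 142 in TBI, and in WBC at 6.31 to 10.9 and 4.17 to 6.08.

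In the other opposite pattern, Git1 was at 181, 182, 183 and 198 FPKM in sham CA1 and 158, 157, 148 and 159 in TBI CA1. WBC values were 19.8, 19.2, 22.9 and 19.8 in sham and 22.6, 23.7, 21.2 and 24.5 in TBI. The CA1 groups were separate and sham 3 overlapped the injured group in blood. Adck2 was separate in both tissues, at 8.24 to 8.83 FPKM in sham CA1 against 6.78 to 8.04 in TBI, and 5.16 to 5.49 in sham WBC against 5.81 to 6.54. Ggcx, the vitamin K-dependent carboxylase, had effects of -0.24 and 0.26 and did not pass (difference 0.51, SE 0.14, limma adjusted p = 0.0901). Arntl, the clock activator BMAL1, noted after its values were seen, had effects of -0.23 and 0.24 and did not pass either (limma adjusted p = 0.0951).

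**Figure D3:**
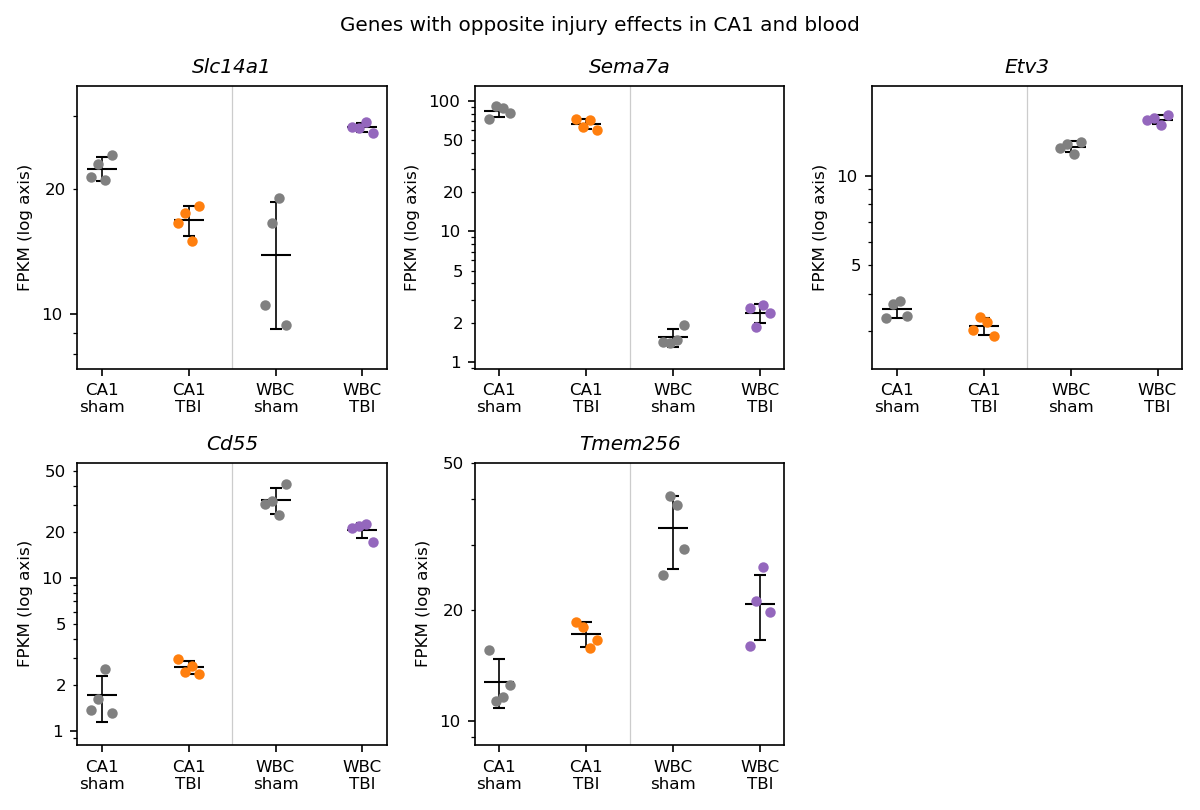
FPKM in each of the 16 libraries (points, log axis) for 5 genes at an unadjusted p under 0.05 in both tissues whose difference also passed, with the mean and SD of each group of 4 (bars). Slc14a1, Sema7a and Etv3 were lower after TBI in CA1 and higher in blood, and Cd55 and Tmem256 the reverse; tissues come from tables normalized separately, so levels are not compared across the grey line.

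Other genes had effects in the same direction in both tissues. The mean of the CA1 and blood effects passed an adjusted limma p of 0.05 for 69 genes (0.903%), 6 higher (0.0785%) and 63 lower (0.825%), or 25 higher and 32 lower with quantile normalization. Only 14 of the 69 were at an unadjusted p under 0.05 in CA1, 59 had the same sign in both tissues, and 16 were among the 32 whose effects differed, so most carried a blood effect. At an unadjusted p under 0.05 in both tissues with the same sign there were 36 genes (0.471%), 14 higher (0.183%) and 22 lower (0.288%). With the 29 of opposite sign, they made up 65 of the 229 genes at that p in CA1. That share is near the 29.5% of all genes at that p in WBC. None of the 36 had a difference between tissues at an unadjusted p under 0.05, and the mean effect passed for 14. The 36 were picked by their effects in the same fit, which favours a small difference and a large mean. Neither count is thus separate evidence of a shared effect. The count of 69 was between 12 and 28 without any 1 of the CA1 libraries, 24 without WBC sham 1, 22 without WBC sham 2 and 28 without WBC TBI 4, but 157, 225 and 301 without WBC TBI 1, 2 and 3; the count of 36 was 65 without CA1 sham 1 and 22 without CA1 sham 2.

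Retsat, retinol saturase, an enzyme of vitamin A metabolism, was lower in both tissues. Sham CA1 held 35.4, 41.5, 41.5 and 50.2 FPKM and injured CA1 32.9, 20.4, 15.3 and 16.4. In sham WBC it was at 34.9, 42.9, 34.5 and 38.2, and in injured WBC at 21.7, 25.7, 21.2 and 22.4. Neither tissue's groups overlapped, although CA1 TBI 1 lay close to sham. Its effects were -1.03 and -0.71, with a mean of -0.87 (SE 0.13, limma adjusted p = 0.00965) and a difference of 0.31 (95% interval -0.23 to 0.86). Over the 11 tested genes of the retinoid list, Retsat among them, the median effect was -0.04 in CA1 and 0.02 in WBC.

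Cd93, a receptor of endothelial and myeloid cells, was also lower in both. CA1 values were 2.08, 2.46, 2.48 and 1.92 FPKM in sham and 0.772, 0.933, 1.01 and 0.892 in TBI. In WBC they were 5.99, 3.51, 7.75 and 5.01 in sham and 1.93, 2.63, 3.88 and 2.17 in TBI. CA1 groups were far apart, and in blood TBI 3 passed the lowest sham library. The effects of -0.96 and -0.93 had a mean of -0.95 (SE 0.14, limma adjusted p = 0.00965) and differed by 0.03 (95% interval -0.57 to 0.62), an interval that does not show them equal.

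Akt2, a kinase of insulin signalling, was at 18.6, 20.2, 18.8 and 20.8 FPKM in sham CA1 and 15.4, 14.5, 15.8 and 15.98 in TBI CA1. WBC values were 112, 131, 139 and 126 in sham and 67.9, 102, 93.6 and 87.2 in TBI. Groups were separate in both tissues, one of 27 genes (0.353%) so in the same direction, and the mean effect was -0.44 (SE 0.07, limma adjusted p = 0.0151). Lpcat3, which loads polyunsaturated fatty acids into phospholipids, was separate in both too, at 13.4 to 15.2 FPKM in sham CA1 and 10.98 to 12.0 in TBI, and 28.8 to 37.2 and 23.0 to 26.7 in WBC (mean effect -0.36, SE 0.06, limma adjusted p = 0.00965). Tgm2, a protein cross-linking transglutaminase, was at 3.55 to 6.03 FPKM in sham CA1 and 1.99 to 3.02 in TBI CA1, against 4.08 to 5.28 and 1.195 to 3.09 in WBC (mean effect -0.81, SE 0.14, limma adjusted p = 0.0176). All 3 had lower values in every injured library of both tissues.

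Dbp, a clock output factor that binds D-box elements, was 1 of 7 genes (0.0916%) higher in both tissues with separate groups in each. It was at 71.4, 52.8, 63.9 and 79.0 FPKM in sham CA1 and at 94.2, 103, 88.2 and 106 in TBI CA1. Blood held 9.26, 7.51, 9.69 and 8.73 in sham and 11.9, 10.9, 10.3 and 11.7 in TBI. Its mean effect was 0.45 (SE 0.08, limma adjusted p = 0.0176) and the tissues differed by -0.23 (95% interval -0.56 to 0.10). Mrpl22, a protein of the mitochondrial ribosome, was at 18.5 to 22.1 FPKM in sham CA1 and 21.5 to 25.5 in TBI CA1, which overlap, and at 11.1 to 11.8 and 14.2 to 15.1 in WBC, which do not (mean effect 0.29, SE 0.05, limma adjusted p = 0.0166). Nr1d2, the repressor REV-ERB beta, E4f1, a zinc-finger transcription factor, and RT1-N3, a class I gene of a multigene family whose reads may be shared, were higher in both at unadjusted p under 0.05, with mean effects of 0.20, 0.19 and 0.37 that did not pass (limma adjusted p = 0.0614, adjusted p = 0.0613 and adjusted p = 0.0655).

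Beyond Dbp and Nr1d2, other clock genes shared a direction, noted after their values were seen. Per3, a repressor of the clock loop, was at 5.01 to 5.41 FPKM in sham CA1 and 5.50 to 6.85 in TBI, with effects of 0.25 in CA1 and 0.26 in WBC. Nfil3, a D-box repressor, had effects of -0.32 and -0.35. Over the 17 tested of 23 listed clock genes, the median effect was -0.02 in CA1 and 0.19 in WBC, 5 genes had opposite signs, and none passed the test of the difference in limma (4 at an unadjusted p under 0.05, a share near the 19.8% of all genes).

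**Figure D4:**
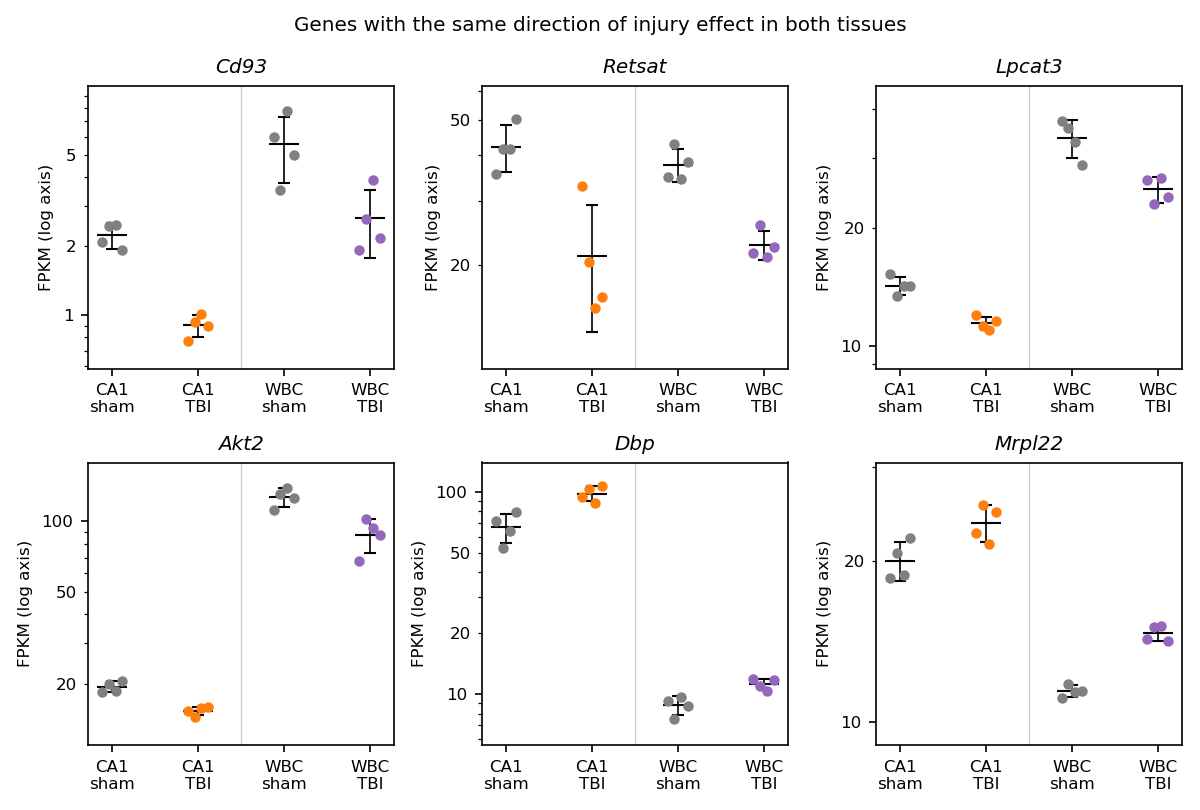
FPKM in each library (points, log axis) for 6 genes with the same direction of injury effect in CA1 and WBC and a mean effect past an adjusted p of 0.05, with the mean and SD of each group of 4 (bars). Cd93, Retsat, Lpcat3 and Akt2 were lower after TBI in both tissues and Dbp and Mrpl22 higher; levels are not compared across the grey line.

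Gene lists were described by counts and medians. Counts of members at an unadjusted p under 0.05 for the difference are to be read against 19.8% of all tested genes, 12.7% lower and 7.13% higher in blood. The largest differences were in lists of red cell biology, and they came from blood. Of 38 erythroid genes 17 were tested, and all 17 had a lower effect in blood, with medians of 0.00 in CA1, -0.87 in WBC and -0.84 for the difference, against -0.01 over all genes. None passed the adjusted test in limma and 13 of the 17 were at an unadjusted p under 0.05, all lower in blood. Slc25a37, the mitochondrial iron importer mitoferrin, was at 269 to 413 FPKM in sham WBC and 103 to 197 in TBI WBC, and at 1.21 to 1.54 across CA1 (difference -1.14, SE 0.24, limma adjusted p = 0.0516). Fbxo7, a ubiquitin ligase adaptor abundant in red cell precursors, differed by -0.81 (SE 0.17, limma adjusted p = 0.0542). The median was -0.64 without WBC TBI 1 and -0.42 with quantile normalization.

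All 14 genes of heme synthesis were tested; 12 had a lower effect in blood, with a median difference of -0.89. The gene that passed was Slc25a38, which carries glycine into mitochondria for the first step of the pathway. It was at 82.1, 100, 81.7 and 88.4 FPKM in sham WBC and 38.4, 60.8, 56.2 and 39.5 in TBI WBC, with CA1 at 12.4 to 14.6. The blood groups were separate and the CA1 effect was 0.00 (difference -0.88, SE 0.18, limma adjusted p = 0.0454), a call lost with median-ratio scaling (adjusted p = 0.059) and quantile normalization (adjusted p = 0.085). Slc25a37 stands in this list too. Among 15 tested genes of iron handling, 11 had a lower effect in blood and the median was -0.35. Ncoa4, the receptor that sends ferritin to autophagy, differed by -1.28 (SE 0.28, limma adjusted p = 0.0589) and Hebp1, a heme-binding protein, by -0.96 (SE 0.24, limma adjusted p = 0.0776).

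Of 31 platelet genes 13 were tested and 12 had a lower effect in blood, with a median difference of -0.60 and none passing in limma (6 of the 13 at an unadjusted p under 0.05). Ptgs1, cyclooxygenase-1, was at 107 to 146 FPKM in sham WBC and 36.3 to 75.6 in TBI WBC (difference -0.84, SE 0.26, limma adjusted p = 0.104). Fermt3, the integrin activator kindlin-3, differed by -0.60 (SE 0.20, limma adjusted p = 0.123). The median was -0.39 without WBC TBI 1 and -0.26 with quantile normalization.

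The lists of the respiratory chain and of cytosolic ribosomal proteins had medians of opposite sign in the tissues. For 67 tested genes of the respiratory chain, the median was 0.10 in CA1 and -0.15 in WBC, 64 had a lower effect in blood, 54 had opposite signs and none passed in limma (27 of the 67 at an unadjusted p under 0.05). Ndufb11, a subunit of complex I, was at 107 to 119 FPKM in sham CA1 and 110 to 129 in TBI, and at 89.0 to 98.1 in sham WBC and 62.4 to 78.3 in TBI WBC (difference -0.49, SE 0.11, limma adjusted p = 0.0589). Cox8a, of complex IV, differed by -0.69 (SE 0.16, limma adjusted p = 0.0676). With quantile normalization the median of this list was -0.08 and 40 of the 67 were lower, and the differences were -0.21 for Ndufb11 and -0.29 for Cox8a.

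Cytosolic ribosomal proteins had a median of 0.15 in CA1 and -0.13 in WBC; 53 of 58 tested had a lower effect in blood and 51 had opposite signs, with a median difference of -0.30 that turned to 0.08 under quantile normalization. None passed in limma, and 12 of the 58 were at an unadjusted p under 0.05, a share near that of all genes. Rps23, of the small subunit, was at 63.1 to 71.2 FPKM in sham CA1 and 71.7 to 94.6 in TBI, without overlap, and at 217 to 242 and 165 to 234 in WBC (difference -0.46, SE 0.15, limma adjusted p = 0.109), or -0.087 with quantile normalization. Ribosomal protein genes have many near-identical processed copies, so their FPKM are uncertain.

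Antioxidant genes differed by a median of -0.41, with 24 of 28 lower in blood and a CA1 median of 0.07. Glrx5, a glutaredoxin of iron-sulfur cluster assembly, was at 243 to 354 FPKM in sham WBC and 107 to 228 in TBI WBC (difference -1.07, SE 0.26, limma adjusted p = 0.0708), and Gpx1, glutathione peroxidase, differed by -0.91 (SE 0.22, limma adjusted p = 0.072). Glycolysis genes had a median difference of -0.33, with 18 of 24 lower in blood. Aldoa, an aldolase, was at 158 to 212 FPKM in sham WBC and 118 to 142 in TBI WBC (difference -0.58, SE 0.13, limma adjusted p = 0.0642), and Ldha, lactate dehydrogenase, differed by -0.51 (SE 0.12, limma adjusted p = 0.0708). No gene of either list passed in limma; 15 of the 28 antioxidant and 11 of the 24 glycolysis genes were at an unadjusted p under 0.05. With quantile normalization the medians were -0.21 and -0.13, and the differences were -0.70 for Glrx5, -0.27 for Gpx1, -0.20 for Aldoa and -0.25 for Ldha; with no minimum FPKM the glycolysis median was -0.195. Beside all of these lists stand the lower red cell and platelet sums of the injured WBC libraries, whose part was not tested.

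Lists of brain cells could be compared only for the few members also at 1 FPKM or more in blood. For 10 of 36 pyramidal neuron genes the median difference was 0.40, with effects of -0.10 in CA1 and 0.22 in WBC, and none passed in limma (1 at an unadjusted p under 0.05). Ncdn, neurochondrin, differed by 0.40 (SE 0.16, limma adjusted p = 0.192) and Slc17a7, the vesicular glutamate transporter, by 0.63 (SE 0.30, limma adjusted p = 0.264), the latter from 0.676 to 0.995 FPKM in sham WBC and 0.919 to 3.12 in TBI WBC. In blood the groups of both genes overlapped. Without WBC TBI 3, the library at 3.12, the difference for Slc17a7 was 0.32 and the list median 0.21. The astrocyte list (8 of 24) had a median of 0.23, with Slc14a1 passing and Glul, glutamine synthetase, at -0.68 (SE 0.31, limma adjusted p = 0.23); the median was 0.13 without CA1 TBI 1 or without WBC TBI 3. The oligodendrocyte list (11 of 29) had a median of -0.25, led by Ca2, carbonic anhydrase (-1.01, SE 0.30, limma adjusted p = 0.0951), which is also a red cell enzyme, and by Gsn, gelsolin (-0.57, SE 0.30, limma adjusted p = 0.31); without WBC TBI 1 the median was -0.02. Choroid plexus genes (5 of 20) had a median of -0.71, or -0.26 without WBC TBI 1. Aqp1, a water channel shared with red cells, was at 599 to 722 FPKM in sham WBC and 157 to 407 in TBI WBC (difference -1.32, SE 0.67, limma adjusted p = 0.296), and Kcnj13, a potassium channel, differed by 0.27 (SE 0.14, limma adjusted p = 0.306).

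Several lists had medians near 0. Heat shock genes were at -0.00 over 29, splicing factors at 0.02 over 50, aminoacyl-tRNA synthetases at -0.02 over 22, and glucocorticoid response genes at 0.07 over 15. In these the blood and CA1 medians were themselves within 0.05 of 0.

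**Figure D5:**
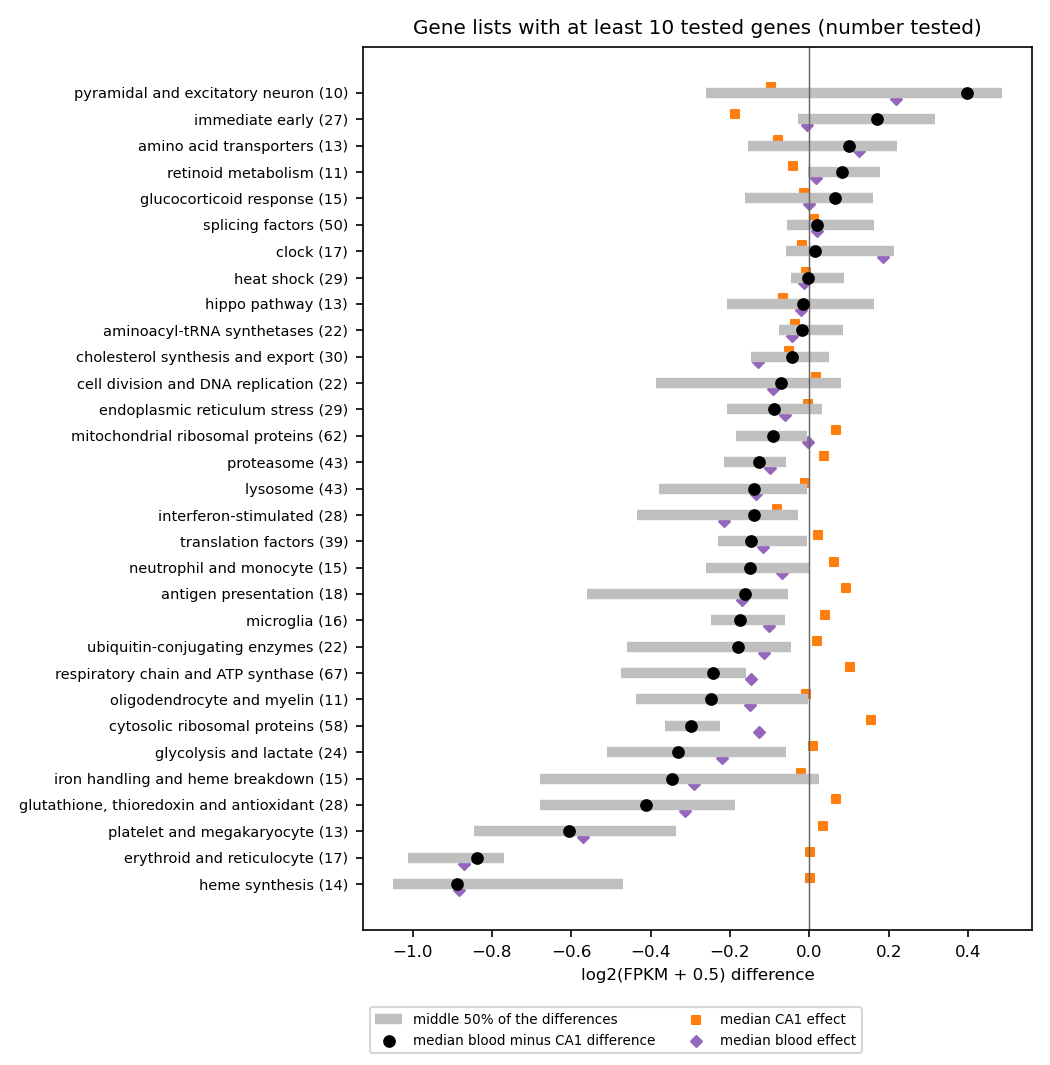
Median difference between the blood and CA1 effects (black circles) with the middle 50% of its genes (grey bars), and median CA1 (orange squares) and blood (purple diamonds) effects, on the log2(FPKM + 0.5) scale, for lists with at least 10 tested genes (number in brackets). Heme synthesis, erythroid and platelet lists lie lowest, from -0.89 to -0.60, and the CA1 medians of all lists lie between -0.19 and 0.15.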

How the data were processed

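RNA-seq of CA1 and WBC from sham and TBI rats was analysed from 2 deposited tables of FPKM, 1 per tissue. Per the submitters' processing notes, the authors used TopHat, TopHat2, Bowtie, Bowtie2, Cufflinks and Cuffdiff with the rat build rn5; the sources used here name no version, annotation, strand setting or normalization. FPKM holds no counts, so depth is unknown and no counting interval is given; spacing of the lowest values put the libraries for which it was clear at 0.798 to 1.37 times the depth of sham 1 of their tissue.

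From these values the following was computed. Rows with a mean of at least 1 FPKM and status OK in all 8 libraries of a table were matched by symbol (7639, of which 69 name several genes; the row with the highest mean stood for a repeated symbol). Values were taken as log2(FPKM + 0.5), which understates changes of low genes. limma 3.58.1 in R 4.3.3 was fitted to all 16 libraries with 1 mean per group and a variance trend; contrasts were the effect in each tissue, their difference and their mean, two-sided, with Benjamini-Hochberg adjustment over all genes and a threshold of 0.05. Tables were normalized separately, so only differences of within-table differences were tested across tissues. Figures were drawn with matplotlib 3.10.9, and the fit was checked on simulated data.

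Genes named were the 10 per direction with the smallest p for the difference, 5 per pattern of opposite and of shared direction, the 2 leading genes of each list of at least 5 tested genes whose median lay 0.2 or more from that of all genes, and Retsat, Slc14a1 and Furin; others are said to be chosen after their values were seen. Of the genes this rule takes, 2 are not reported here. The members and lists were chosen with earlier results of these data known. Alternatives were other pseudocounts, expression minimums, scalings, variance models, weights, blocks on the sample number and leaving out each library. Promoters came from RefSeq (GRCr8), and no other positions are given because that is not the build of the files.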

Additional observations from a re-analysis of the deposited data

Results flagged for a closer look

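Over the 56 named genes, 224 groups of 4 libraries were examined for a library far from the others, and 12 had one; chance alone gives about 1 in 20. In CA1 these were sham 4 for Git1 (198 FPKM against 181 to 183), TBI 2 for St3gal5 (63.6 against 69.5 to 69.8), sham 3 for Nr1d2 (17.5 against 16.2 to 16.3), sham 2 for Slc25a37 (1.21 against 1.37 to 1.38) and TBI 4 for Slc25a38 (14.6 against 12.7 to 12.96). In WBC, sham 4 stood out for Sema7a (1.91 against 1.39 to 1.46), sham 3 for Git1 (22.9 against 19.2 to 19.8), TBI 2 for Ncoa4 (431 against 208 to 235) and sham 2 for Glul (1182 against 825 to 872). WBC TBI 1 stood out for Timp2 (4.17 against 5.88 to 6.08), Ptgs1 (36.3 against 66.8 to 75.6) and Glul (322 against 637 to 732).

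The test of the difference between tissues passed for 17 of the named genes. Higher in blood were Slc14a1 (1.45), Mir874 (0.87), Sema7a (0.81) and Etv3 (0.45). Lower in blood were Slc24a4 (-1.55), Wwtr1 (-1.25), Ifrd2 (-1.22), Cd55 (-1.15), Tmem256 (-1.09), Hexim2 (-1.08), Slc25a38 (-0.88), Atg4d (-0.87), Bap1 (-0.84), Ttc7b (-0.82), Ddx28 (-0.80), Furin (-0.77) and St3gal5 (-0.61).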

How the results depend on the processing

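All 17 named genes that passed the test of the difference kept their direction in each of the 30 to 32 alternatives that gave them a value, and 6 passed in every fit that left out 1 library. Each of the 6 missed the threshold in 1 or more of the other alternatives, with a highest adjusted limma p of 0.077, the same for all 6. The block on CA1 and WBC of equal number, described below, kept only 1 of the 32. Counts moved more: the 32 genes that differed became 12 with no minimum FPKM, 20 with a minimum of 5 FPKM, 286 with library weights, 130 with tissue weights and 332 at an adjusted p of 0.1. The 69 genes with a mean effect became 22 with no minimum, 25 with median-ratio scaling, 318 with library weights, 225 with tissue weights and 465 at an adjusted p of 0.1. Opposite genes (29) became 54 with no minimum, 15 with a minimum of 5 FPKM, 145 with library weights and 45 with each tissue alone. Shared genes (36) became 55, 21, 120 and 53 under the same settings. Leaving out 1 library gave 6 to 224 differing genes, 12 to 301 with a mean effect, 17 to 76 opposite and 22 to 65 shared. The causes were not tested.

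Equal sample numbers were not used as pairs, because the labels do not tie them and not every correlation was over 0.1; whether they are the same rats is not known. Correlations of deviations were 0.06 to 0.21 between CA1 and WBC (each best with its own number in 8 of 8 pairs), 0.13 to 0.29 between sham and TBI in CA1 and -0.05 to 0.19 in WBC. With the number as a replicate block 30 genes differed, 1 higher and 29 lower and 20 of them among the 32, and 170 had a mean effect; with CA1 and WBC of equal number as a block 3 differed, 1 of them among the 32.

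Small differences between tissues changed sign for Cd93 (-0.070 with a pseudocount of 1), RT1-N3 (-0.077 with a pseudocount of 0.1, -0.106 with library weights), E4f1 (-0.012 with library weights) and Akt2 (0.075 with quantile normalization). Leaving out 1 library, Cd93 ran from -0.155 to 0.191, RT1-N3 from -0.053 to 0.214, E4f1 from -0.017 to 0.077 and Nr1d2 from -0.054 to 0.026. List medians turned for oligodendrocyte genes (0.031 with no minimum, 0.022 with quantile normalization), ribosomal proteins (0.085 with quantile normalization) and, with a minimum of 5 FPKM, for astrocyte (-0.572), pyramidal neuron (-0.011) and choroid plexus genes (0.274), of which 3, 4 and 1 were left. Under quantile normalization the median over all genes moved from -0.01 to 0.04. FPKM values give no depth, so no detection limit can be set, and 4 libraries a group limit the precision.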

Other observations

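Some genes of class II antigen presentation, which load peptides for T cells, had estimated effects of opposite sign in the tissues. They were picked out after their values were seen. RT1-Ba had an effect of 0.43 in CA1 and -0.42 in WBC, RT1-Da 0.33 and -0.34, RT1-Db1 0.25 and -0.31, and Cd74, the invariant chain, 0.38 and -0.37. In CA1, Cd74 was at 5.12 to 8.29 FPKM in sham and 5.03 to 15.3 in TBI, and in WBC at 1703 to 2078 and 1154 to 1755; both pairs of groups overlapped. None passed the test of the difference (limma adjusted p = 0.0951, adjusted p = 0.156, adjusted p = 0.19 and adjusted p = 0.223), and RT1 genes belong to a multigene family whose reads may be shared. Over 18 tested genes of antigen presentation, 14 had a lower effect in blood, with a median of -0.16. Signs were opposite in 9 of the 18, a share near that of all genes (3836 of 7639).

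Immediate early genes, switched on within minutes of a stimulus, had a median of -0.19 in CA1 and -0.01 in WBC over 27 genes. Of these, 19 had a higher effect in blood and none passed in limma (2 at an unadjusted p under 0.05, both lower in blood, where 19.8% of all genes reached that p). Lysosomal genes had a median of -0.01 in CA1 and -0.14 in WBC, with 33 of 43 lower in blood and none passing in limma (14 at an unadjusted p under 0.05). Interferon-stimulated genes were at -0.08 and -0.21, with 21 of 28 lower in blood, again with none passing in limma (3 at an unadjusted p under 0.05).

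Ddx39b, an RNA helicase of splicing and export, was listed at 0 in the 4 sham CA1 libraries and in CA1 TBI 3, and at 826 to 1968 FPKM in the other injured CA1 libraries; it was at 246 to 342 in WBC. It was 1 of 9 tested genes listed at 0 in at least 1 library, and the difference between tissues did not pass (limma adjusted p = 0.103).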
